A study of Gallus gallus with 2 samples.

Results

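The genes described here are 45 symbols of the cell cycle and of DNA replication, chosen by name from the annotation that the authors deposited with their array values. A symbol was read from its brightest probe, and 36 of the 45 symbols had at least 1 probe. They were grouped by the phase they serve: 10 of 10 G1 genes, 10 of 14 S phase genes, 12 of 14 mitotic genes (CDK1 and its older name CDC2 are the same gene and were counted once, as CDC2 in the annotation) and 4 of 7 inhibitors and antiproliferative genes. All 36 were well above background on all 8 arrays and none was saturated, so all 36 entered the test, out of 19035 genes or accessions tested in the whole series. MCM4, MCM7, CDC6, CDC45, AURKB, CDKN1A, CDKN1C and CDKN2B had no probe under those symbols.

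Progenitors of the early neural tube divide at the ventricular surface, and a cell that becomes a neuron leaves the cycle for good. Passage through G1 is driven by D-type cyclins with CDK4 or CDK6 and by E-type cyclins with CDK2, which phosphorylate RB1 and so release E2F transcription factors. E2F activity then switches on the replication genes of S phase, a second set of genes is transcribed in G2 for mitosis, and inhibitors of the CIP/KIP and INK4 families and growth-arrest genes hold the cycle back. Notch signalling is known for keeping neural progenitors undifferentiated, which is the reason for asking what its block does to these genes.

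Chick embryos were taken at stage HH10 and cultured whole for 16 hours, until about HH13, in medium with 40 µM DAPT or with its solvent DMSO. DAPT inhibits gamma-secretase, the protease that releases the intracellular part of Notch receptors and that also cuts other membrane proteins, so the treatment was limited neither to the forebrain nor to Notch. RNA of the prosencephalon, the forebrain vesicle, was pooled from 5 embryos and hybridized with a single dye to an Agilent chick array, with 4 arrays for DMSO and 4 for DAPT. Arrays 1 and 2 of each group lay on slide 1 and arrays 3 and 4 on slide 2, and p-values measure the spread between these arrays. Levels are given as the log2 of the background-corrected spot signal minus the median of that array, so that 0 is the median probe of the array and 1 unit is a 2-fold difference. A log2 fold change is the mean of the DAPT arrays minus the mean of the DMSO arrays, and because signal depends on the probe, levels of different genes are not compared.

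Before normalization the median signal was 176.6 to 352.1, and 67.8 to 80.8% of spots were well above background. The slides parted along the first principal component, which took 59.5% of the variance. The treatment was visible in HES5, a direct Notch target, which fell by 5.83 on the log2 scale (SE 0.53, limma adjusted p = 0.0035) but was well above background on only 1 of the 4 DAPT arrays, so that the size of its fall is uncertain, and in NEUROG1, a proneural gene, which rose by 3.15 (limma adjusted p = 0.0181). All 10 forebrain and progenitor markers with a probe were well above background on all arrays, while of 4 hindbrain and trunk markers with a probe HOXA2, HOXB1 and HOXB5 were so on none and HOXB4 on 1.

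No cell cycle or replication gene passed the test after DAPT. Of the 36 genes 0 were called higher and 0 lower at an adjusted p under 0.05 (limma, Benjamini-Hochberg over all probes, two-sided), where 0.11% of all 19035 genes were called higher and 0.0368% lower. With the slide as a block, which took 0.368% and 0.137% of all genes past the threshold, and with array number blocked instead, which took 0.457% and 0.257%, the count among the 36 was again 0 in each direction. At an unadjusted p under 0.05, reached by 1.33% of all genes in the higher and 1.25% in the lower direction, GADD45A was higher and CDK6 lower. These were also the 2 genes of the set that differed by at least 1.3-fold, against 4.19% of all genes higher and 4.74% lower. Since each array measured whole forebrain tissue, fewer dividing cells and less RNA of a gene per cell cannot be told apart. Markers of other tissues were present too. All 5 neural crest, all 5 mesenchyme and all 7 endothelium markers were well above background on all 8 arrays. The part of such cells in the signal of the cell cycle genes was not tested.

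The size of a change that these arrays leave room for was limited. Without a block, the 95% intervals of the log2 fold changes reached 0.337 to 0.835 to either side, with a median of 0.490. A 2-fold change lay outside the interval of 34 of the 36 genes, the exceptions being CDK6 and CDT1, and a 1.5-fold change outside that of 18. With the slide as a block the median reach was 0.340, all 36 intervals excluded a 2-fold change, 30 excluded a 1.5-fold change and 9 a 1.3-fold change. These intervals hold for the main background handling only. Under normexp background correction, an alternative listed below, TOP2A was at -0.95 and MCM6 at -0.91, where the median of all tested probes was -0.31. CDK6 and GADD45A were the genes whose intervals left out 0 in either fit. These intervals are not adjusted for the number of genes. Without a block, 1.33% of all genes in the higher and 1.25% in the lower direction had an unadjusted p under 0.05 (limma). That share was not counted with the slide as a block.

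**Figure D1:**
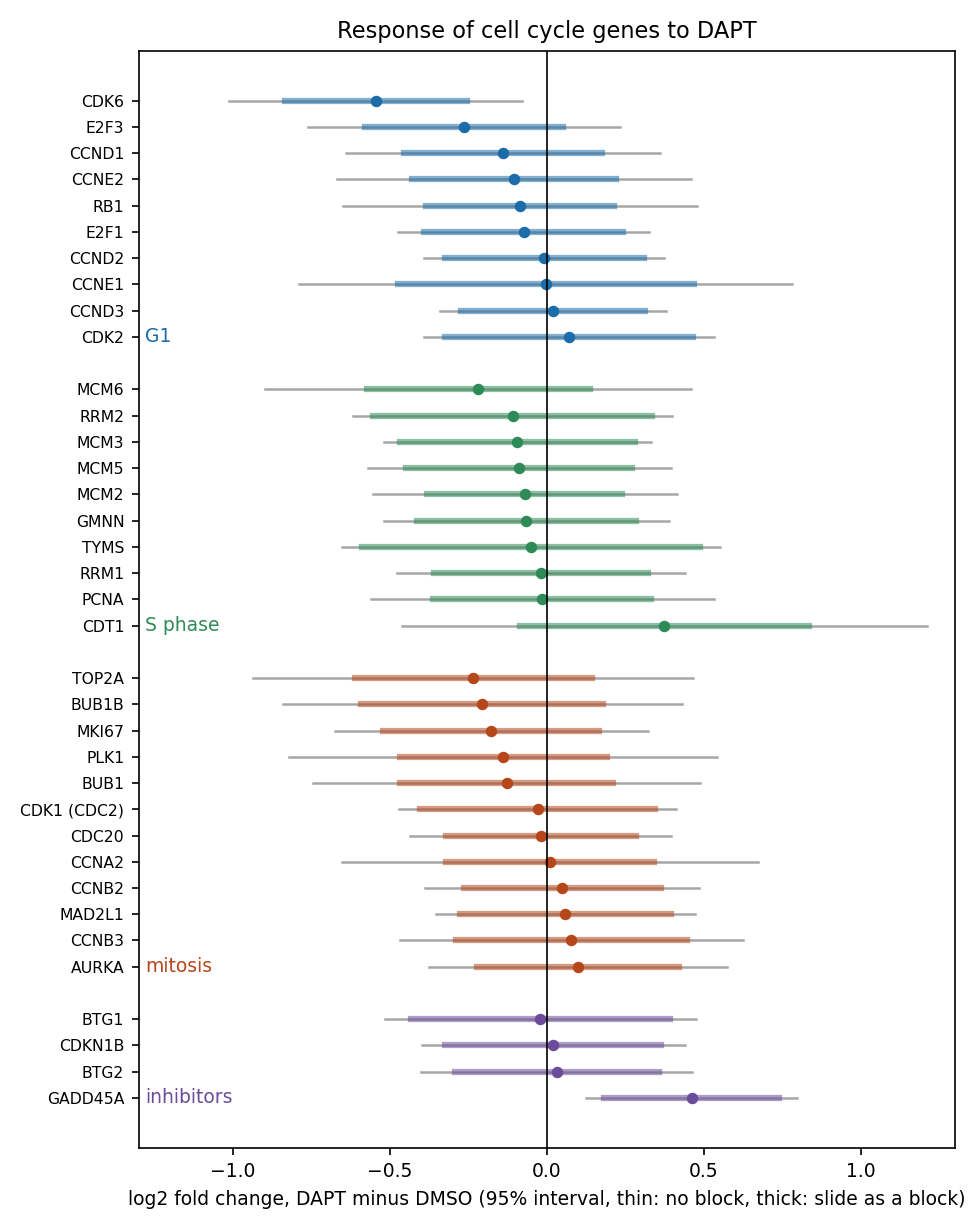
Log2 fold change (DAPT minus DMSO, points) of the 36 cell cycle genes, grouped by phase, with 95% intervals from limma without a block (thin lines) and with the slide as a block (thick lines). Only CDK6 (-0.55) and GADD45A (0.46) have intervals that leave out 0, and neither passed the adjusted test.

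Among the G1 genes, 2 were above 0 and 8 below, from -0.55 to 0.07 on the log2 fold change scale. CDK6, the kinase that partners D-type cyclins, stood lowest. With DMSO its levels on arrays 1 to 4 were -0.38, -0.17, 0.23 and 0.16, and with DAPT they were -0.72, -0.88, -0.43 and -0.32. On each slide both DAPT arrays lay below both DMSO arrays, but over all arrays the groups overlapped, because DMSO array 1 lay below DAPT array 4. The log2 fold change was -0.55 (SE 0.21, 95% interval -1.01 to -0.08), or 1.46-fold lower, with a limma adjusted p of 0.9999 without a block and 0.205 with the slide as a block. An exact permutation test over the 70 splits of the arrays gave p = 0.0571 (two-sided), where the smallest p of this design is 0.0286. CDK6 had a single probe, and its log2 fold change was -0.52 on slide 1 and -0.57 on slide 2. Under normexp background correction it was -0.12. The median of all tested probes was -0.31 in that setting, but the shift differed between probes. BTG2, whose probe was about as bright as that of CDK6, read 0.15 there, and TOP2A, with a bright probe, read -0.95.

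The D-type cyclins, partners of CDK6, lay closer to 0. CCND1 read 4.68, 5.14, 5.37 and 5.36 with DMSO and 4.81, 4.68, 5.27 and 5.23 with DAPT, a log2 fold change of -0.14 (SE 0.22). In each group the slide 2 arrays were the higher ones, and the groups overlapped. CCND2 and CCND3 differed by -0.01 and 0.02, and their 95% intervals ran from -0.39 to 0.37 and from -0.34 to 0.38. The E-type cyclins CCNE1 and CCNE2 and their kinase CDK2, which act at the entry into S phase, had log2 fold changes of 0.00, -0.10 and 0.07. CCNE1 had the widest interval of the G1 genes, -0.79 to 0.78, as it read 1.14 to 1.31 on slide 1 and 1.66 to 2.58 on slide 2.

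Downstream of these kinases, the pocket protein RB1 differed by -0.09 (SE 0.25) and E2F1, which activates replication genes, by -0.07 (SE 0.18). E2F3, another activator, was the next lowest G1 gene. It read 0.65, 0.70, 0.19 and 0.33 with DMSO and 0.33, 0.61, -0.24 and 0.10 with DAPT, with overlapping groups, a log2 fold change of -0.26 (SE 0.22) and p = 0.257 in the exact permutation test. A further E2F3 probe gave -0.14.

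Of the S phase genes, 9 of 10 were below 0 and CDT1 was above it. PCNA, the sliding clamp of the replicative polymerases, had levels of 5.48, 5.98, 6.24 and 6.15 with DMSO and 5.49, 5.82, 6.34 and 6.14 with DAPT. The same array numbers were low and high in both groups, and the means differed by -0.01 (SE 0.25, 95% interval -0.56 to 0.53). The MCM genes encode the ring of the replicative helicase. MCM2, MCM3, MCM5 and MCM6 differed by -0.07, -0.09, -0.09 and -0.22, each by less than the SD between arrays of a group. The ribonucleotide reductase subunits RRM1 and RRM2, which make deoxynucleotides, differed by -0.02 and -0.11, and TYMS, which makes thymidylate, by -0.05 (SE 0.27).

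CDT1, which loads the MCM helicase onto origins, had the largest spread of the 36 genes. It read 6.05, 6.18, 4.42 and 5.24 with DMSO and 6.08, 6.22, 5.44 and 5.65 with DAPT. DMSO array 3 stood lowest and all slide 2 arrays lay below all slide 1 arrays, so its log2 fold change of 0.37 (SE 0.38, 95% interval -0.46 to 1.21) was 0.03 on slide 1 and 0.72 on slide 2. Without DMSO array 3 it was 0.02, the lowest of the values with 1 array left out. Its other probe gave 0.25. GMNN, the inhibitor that binds CDT1, differed by -0.07 (SE 0.20).

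The mitotic genes lay on both sides of 0, with 5 above and 7 below, and 47.5% of all genes were above 0. TOP2A, the topoisomerase that untangles chromosomes, stood lowest in this class. It had levels of 6.97, 7.32, 7.96 and 8.28 with DMSO and 6.89, 7.29, 7.55 and 7.85 with DAPT. The groups overlapped, with the highest level on DMSO array 4, and the log2 fold change was -0.23 (SE 0.31, 95% interval -0.93 to 0.47). On slide 1 the difference was -0.05 and on slide 2 it was -0.42, and the gene's 3 probes gave -0.23, -0.17 and -0.15.

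MKI67, the antigen used to stain cycling cells, read 3.75, 3.62, 4.40 and 4.05 with DMSO and 3.41, 3.82, 4.06 and 3.83 with DAPT. The groups overlapped and differed by -0.18 (SE 0.22), its other probe gave -0.23, and 5 more probes that match the gene by accession gave -0.15 to 0.07. The spindle checkpoint genes BUB1, BUB1B and MAD2L1, which delay anaphase until chromosomes are attached, differed by -0.13, -0.21 and 0.06. PLK1 and AURKA, kinases of spindle assembly, differed by -0.14 (SE 0.31) and 0.10 (SE 0.21). The cyclins CCNA2, CCNB2 and CCNB3 differed by 0.01, 0.05 and 0.08, their kinase CDK1 by -0.03 (SE 0.20) and CDC20, the activator of the anaphase-promoting complex, by -0.02 (SE 0.19). The gene IDs behind the AURKA and CCNB2 probes carry the symbols AURKB and CCNB1 in the RefSeq table used here, and the deposited symbols were kept.

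Of the inhibitors and antiproliferative genes, GADD45A was the only one of the 36 genes whose groups did not overlap, where 0.898% of all genes were higher without overlap and 0.972% lower. GADD45A binds CDK1 and PCNA and is induced by stress and growth arrest. It read 4.25, 4.13, 4.21 and 4.23 with DMSO and 4.60, 4.65, 4.77 and 4.63 with DAPT. The 4 arrays of each group lay close together and every DAPT array was above every DMSO array. The log2 fold change was 0.46 (SE 0.15, 95% interval 0.12 to 0.80), or 1.38-fold, with p = 0.0286 in the exact permutation test, the smallest p that it can give. Among all probes it did not pass, with a limma adjusted p of 0.9999 without a block, 0.335 with slide and 0.285 with array number as a block. It was 0.44 on slide 1 and 0.49 on slide 2, and -0.18 under normexp, where AURKA, whose probe was about as bright, read -0.55.

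CDKN1B (p27), the CIP/KIP inhibitor of cyclin-CDK complexes, lay near 0. It read 5.69, 5.75, 5.85 and 6.13 with DMSO and 5.56, 6.08, 5.87 and 5.999 with DAPT, a log2 fold change of 0.02 (SE 0.19, 95% interval -0.40 to 0.44), and its 5 probes gave -0.14 to 0.11. BTG1 and BTG2, antiproliferative cofactors of mRNA deadenylation, differed by -0.02 (SE 0.22) and 0.03 (SE 0.19). A BTG2 probe matched by accession read 4.05 ± 0.68 with DMSO and 4.22 ± 0.48 with DAPT (SD, n = 4), a difference of 0.18 (SE 0.35).

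Some symbols without a probe were found through gene IDs or accessions, outside the naming rule. CDKN1A (p21), a CIP/KIP inhibitor listed as CIP1, read 6.39, 6.21, 6.08 and 6.04 with DMSO and 6.54, 6.61, 5.84 and 5.23 with DAPT. The DAPT arrays lay above the DMSO arrays on slide 1 and below them on slide 2, and the difference was -0.12 (SE 0.30). CDC45, a helicase cofactor listed as CDC45L, differed by 0.04 (SE 0.25), and MCM4 by -0.13 (SE 0.23). CDKN2B, an INK4 inhibitor, was well above background on no array and was not tested.

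**Figure D2:**
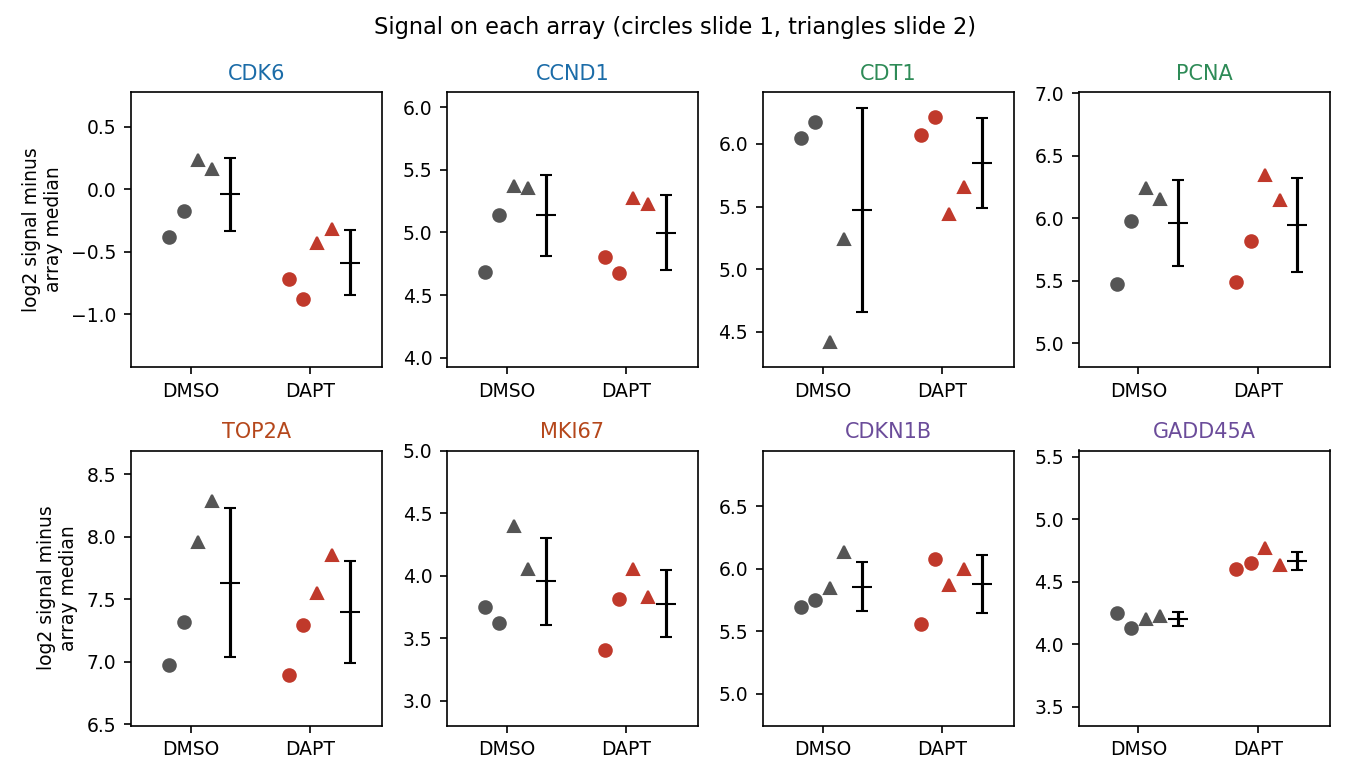
Log2 signal minus the array median of 8 cell cycle genes on each DMSO (grey) and DAPT (red) array, circles for slide 1 and triangles for slide 2, with the mean and SD of 4 arrays beside each group; every panel spans the same range. GADD45A separates the groups (4.13 to 4.25 against 4.60 to 4.77), while CCND1, PCNA, TOP2A and MKI67 differ more between slides than between groups.

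A relative of GADD45A outside the chosen set did pass the test, and was looked at after its values were seen. The annotation lists 3 probes as GADD45B, and 2 of them come from an mRNA that belongs to GADD45G in the RefSeq table, where GADD45B is kept as its older name. GADD45G lies on the sex chromosome Z in that table. The sex of the pooled embryos is not stated, and its part in these values was not tested. GADD45G is a growth-arrest gene of the same family known from mouse and frog to mark cells leaving the cycle to become neurons. The first probe of its mRNA read 2.55, 2.82, 2.25 and 2.60 with DMSO and 3.54, 3.99, 3.91 and 3.85 with DAPT. The groups did not overlap, and the probe rose by 1.27 (SE 0.19, 2.41-fold) with a limma adjusted p of 0.0400 without a block and 0.00591 with the slide as a block. The other probe of the same mRNA read -0.48, 0.18, 0.36 and 0.64 with DMSO and 1.41, 1.75, 2.23 and 2.35 with DAPT. Every DAPT array again lay above every DMSO array, with a difference of 1.76 (SE 0.29, 3.38-fold) and a limma adjusted p of 0.0709 without a block and 0.000804 with the slide as a block.

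The third probe went the other way. It comes from a cDNA clone that the annotation gives to the same gene ID, and whether it measures GADD45G or the separate gene now named GADD45B was not tested. It is the brightest of the 3 and read 5.71, 5.84, 6.21 and 5.83 with DMSO and 5.51, 5.28, 5.79 and 5.43 with DAPT. The groups overlapped and the difference was -0.39 (SE 0.19, limma adjusted p = 0.9999). Without any 1 of the 8 arrays the first probe's difference stayed between 1.17 and 1.36 but its limma adjusted p was 0.0671 to 0.192, and under normexp it was 0.59.

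**Figure D3:**
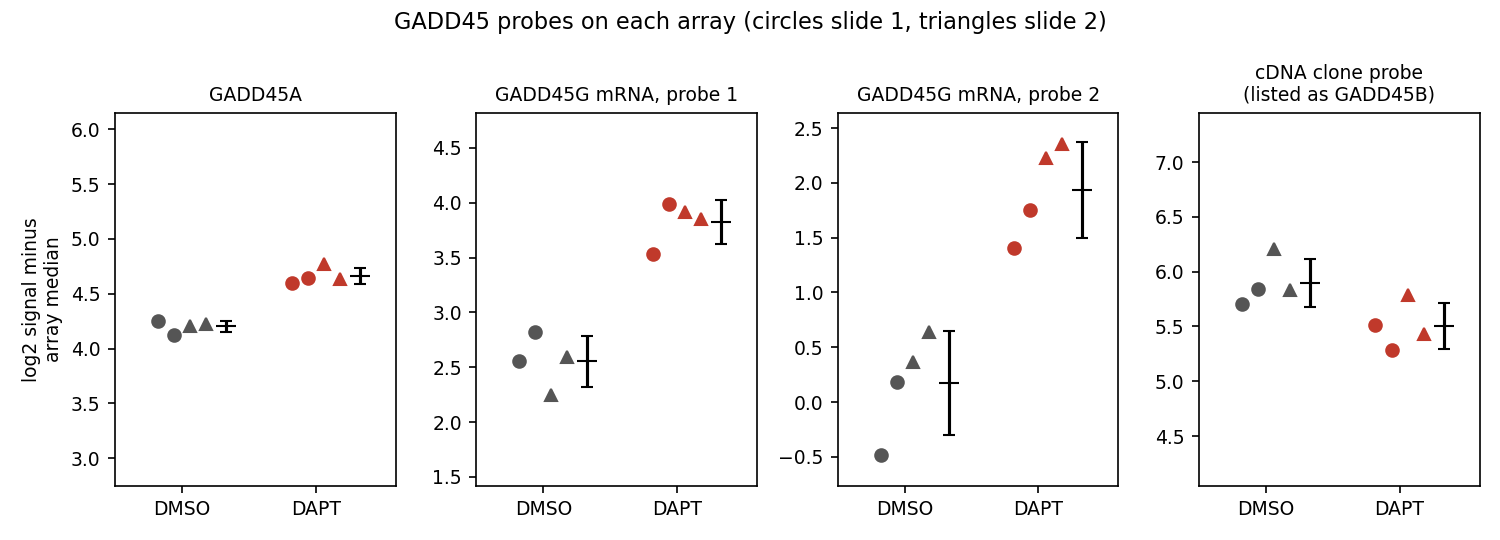
Log2 signal minus the array median of the GADD45A probe, the 2 mRNA probes of GADD45G and the cDNA clone probe (all 3 listed as GADD45B in the annotation) on each array, circles for slide 1 and triangles for slide 2, with the mean and SD of 4 arrays; all panels span the same range. The GADD45A probe and the 2 mRNA probes of GADD45G are higher on every DAPT array, by 0.46, 1.27 and 1.76, and the cDNA clone probe is lower by 0.39 on average with overlapping groups.

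Beside these genes, the neuronal markers had moved with the treatment. Of 15 neuronal markers 12 were tested, of which 11 were higher with DAPT, 10 of them without overlap (0.898% of all genes), 5 passed the test without a block (0.11% of all genes higher) and 8 with the slide as a block (0.368%). Their summed signal was 159 to 212 times the array median with DMSO and 330 to 398 times with DAPT. The tested marker that was not higher was TUBB3 (-0.17). STMN2, NEFM, TAGLN3, NHLH1, NHLH2, CHGA and GAP43 are in the study's own list of genes higher with DAPT on these arrays. The counts of these markers are therefore not independent of the study's result. The median log2 fold change of the 12 markers was 1.52, and their part in the values of GADD45A, GADD45G and CDK6 was not tested.

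The classes were compared by their medians, as a description. The median log2 fold change was -0.08 for G1, -0.07 for S phase, -0.02 for mitosis and 0.03 for inhibitors, beside -0.01 for all genes. The SD of a class median between the 4 arrays of a group, pooled over both groups and with the slide shift included, was 0.145 to 0.295. The median deviation of the G1 genes from their own means read, in array order, -0.22, 0.09, 0.14 and 0.26 with DMSO and -0.28, -0.26, 0.06 and 0.08 with DAPT, so that each DAPT array lay below the DMSO array of its number while the groups overlapped. Of the 36 genes, 25 (69.4%) were below 0 against 52.5% of all genes. That count moved with single arrays, each of which also weighs the slides unequally when left out. It was 14 without DMSO array 4 and 13 without DAPT array 1, and 31 without DMSO array 1 and 28 without DAPT array 3. The median log2 fold change of all tested probes, a set that changed with the array left out, shifted the same way. In the same order it was 0.026, 0.035, -0.053 and -0.058, beside -0.009 with all arrays. All 77 probes of the 36 genes were tested, of which 30 were above 0 and 47 below and 0 were called, and 9 of the 26 genes with several probes had probes on both sides of 0.

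The slide moved these genes more than the treatment did. Compared between slides with the treatment in the model, 16 of the 36 genes (44.4%) were higher on slide 2 at an adjusted p under 0.05 (limma), against 25.0% of all genes, and CDT1 and E2F3 were lower, against 18.1%. Read from their brightest probes, all 12 mitotic genes had a higher mean on slide 2, 8 of them past the threshold, with a median shift of 0.47. Of the 9 mitotic genes with several probes, 4 had probes that shifted in opposite directions. Of all genes, 60.9% had a higher mean on slide 2, with a median shift of 0.148. PLK1 was higher there by 0.81, TOP2A by 0.79 and CCNA2 by 0.77, and all 3 passed. Of the G1 genes 5 passed in this direction (CCND1, CCNE1, CCNE2, CDK6 and RB1), of the S phase genes 3 (MCM2, MCM6 and PCNA), and of the inhibitors 0, with GADD45A differing by 0.05 between slides.

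Single arrays stood out within the slides. DMSO array 1 was the lowest DMSO array for 11 of the 12 mitotic genes and DMSO array 4 the highest for 10, while DAPT array 1 was the lowest DAPT array for 9. Probes of a gene did not always shift alike between slides. Of the 26 genes with several probes, 12 had probes with shifts of opposite sign, some of them near 0 and others not. For E2F3 the probe used here shifted by -0.48 from slide 1 to slide 2 and the other by 0.51. For CDK1 (CDC2) the probe used here shifted by 0.18 and a dimmer one by -0.89. For MCM6 the probe used here was higher on slide 2 by 0.77 and another lower by 0.13, whereas the 3 probes of TOP2A were all higher by 0.72 to 0.81. Erythroid genes moved with the slides as well, with a summed signal of 238 to 510 times the array median on slide 1 and 5.3 to 37.7 times on slide 2. The forebrain markers, the brightest being OTX2, SOX3 and PAX6, summed to 178 to 201 and 283 to 327 times. Not every forebrain marker was higher on slide 2, as NKX2-1 read 1.28 to 1.65 on slide 1 and 0.23 to 1.02 on slide 2. Mesenchyme markers summed to 181 to 280 times on slide 1 and 114 to 179 times on slide 2. Slide 1 arrays held 311 to 382 saturated spots each and slide 2 arrays 0. The slides were scanned on different days, and the part of blood content, tissue and scan in the shift was not tested.

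**Figure D4:**
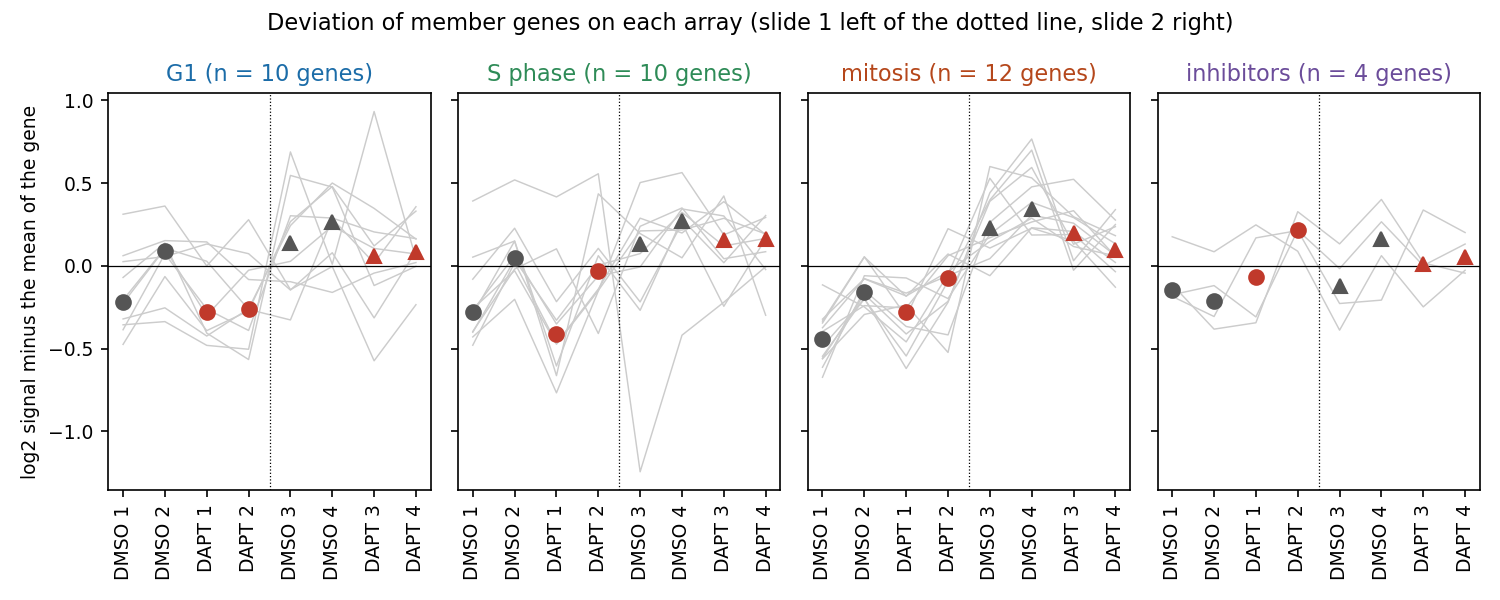
Deviation of each gene from its own mean (thin lines) and the median of its class (symbols) on the 8 arrays, in log2 units, with slide 1 left of the dotted line (circles) and slide 2 right of it (triangles), DMSO grey and DAPT red. The median of the mitotic genes runs from -0.44 on DMSO array 1 to 0.35 on DMSO array 4.

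The mitotic and inhibitor medians were above 0 on slide 1 and below 0 on slide 2, as was the median of all genes. The G1 and S phase medians were below 0 on both slides. Mitotic genes had a median log2 fold change of 0.07 on slide 1, with 9 of 12 above 0, and -0.14 on slide 2, with 2 of 12 above 0. Of all 19035 genes, 10432 were above 0 on slide 1 and 7945 on slide 2. The G1 median was -0.09 on both slides, and the S phase median was -0.09 and -0.04. For the inhibitors it was 0.17 and -0.02, and for all genes 0.02 and -0.05. An interaction term in limma, which compares the response on slide 1 with that on slide 2, called 0 of the 36 genes and 0.0% of all genes at an adjusted p under 0.05, and at an unadjusted p under 0.05 it called 0 of the 36 and 2.52% of all genes.

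**Figure D5:**
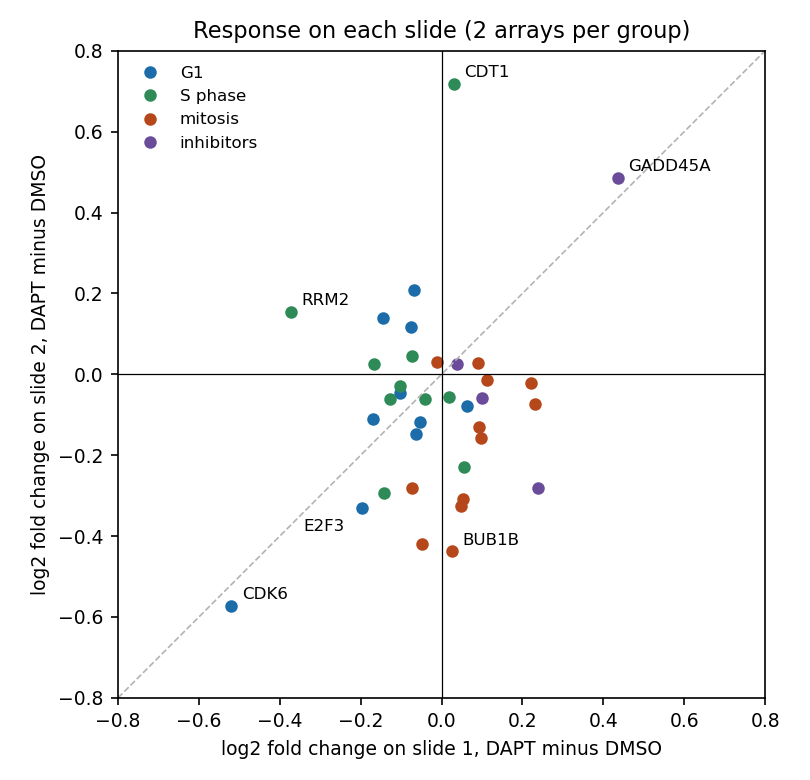
Log2 fold change (DAPT minus DMSO) of each gene on slide 1 (x axis) and slide 2 (y axis), 2 arrays per group on each slide, coloured by class, with equal values on the dashed line. GADD45A (0.44 and 0.49) and CDK6 (-0.52 and -0.57) lie near the line, and CDT1 (0.03 and 0.72) far from it.

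A longer list of 146 further cell cycle symbols gave the same picture when each was read from its brightest probe. Of these symbols 110 had a probe and 108 were tested. ORC1 and RBL2, among others, had tested probes only under other names, which were not counted, and SGOL1 and SGO1 name the same gene. Of the 108 genes tested, 0 were called in either direction without a block, with slide blocked or with array number blocked. At an unadjusted p under 0.05 there were 0 (1.33% of all genes higher, 1.25% lower), and 0 had groups that did not overlap (0.898% and 0.972%). Lower by at least 1.3-fold, as were 4.74% of all genes, were UHRF1, which maintains DNA methylation after replication, at -0.46 (SE 0.23, on 4 DMSO and 3 DAPT arrays), NUF2 of the kinetochore at -0.39 (SE 0.24), and the clone probe listed as GADD45B described above. These 3 were named after their values were seen, and no gene of the list was higher by that much (4.19% of all genes), CDK7 and CKS2 standing highest at 0.33 and 0.31.

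By class, 12 of 19 further G1 genes, 21 of 30 S phase genes, 34 of 47 mitotic genes and 8 of 12 inhibitor and checkpoint genes were below 0. Their medians were -0.06, -0.09, -0.05 and -0.03. Of all 258 tested probes of the longer list, 1 was called without a block and 2 with the slide as a block, and these were the mRNA probes of GADD45G. On slide 2, 37 of the 108 genes were higher and 6 lower at an adjusted p under 0.05, again beside 25.0% and 18.1% of all genes.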

How the data were processed

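The authors deposited the image analysis output of 8 single-dye arrays (Agilent Feature Extraction 10.7.1.1, per the file headers), with a background-corrected intensity for each spot that had not been normalized across arrays. The other deposited tables were a report with group means on a log2 scale and their own fold changes, of which only the gene annotation was used here, and a list of selected genes, which was not used. There were 0 unused columns of other samples. Each deposited set is a treatment group. Array numbers and slides were read from the array names.

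Outlier spots (13 to 44 per array) and control spots were left out, spots of a probe were averaged, and log2 signals were set relative to the 50th percentile of their array, following the study's methods. Probes entered the test (31504 of 43603) when either group had all 4 arrays well above background. Groups were compared with limma 3.58.1 in R 4.3.3 (lmFit and eBayes, two-sided, Benjamini-Hochberg), without a block because the methods name no paired test. Python 3.11.15 and pandas 2.3.3 produced the tables. The fit was tested on simulated data. No depth exists for arrays, and their number limits the precision. Symbols came from the deposited report, with 2265 probes named through RefSeq (GRCg7b). No positions within chromosomes are given, as the array was designed on an earlier build. Promoter motifs and sequences were not analysed here.

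Arrays of the same number in both groups were checked as pairs. Their deviations correlated at 0.679, 0.569, 0.767 and 0.505, and arrays of the same slide with other numbers at 0.419 to 0.675. With the slide mean removed, the values were 0.0488 on slide 1 and 0.355 on slide 2. As a slide held 2 arrays of each group, this left a single free value per slide. Arrays of other numbers took that value with the opposite sign. The check cannot settle whether the arrays are pairs, so the array number served as a block beside the fit without it.

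The genes, lists and tests were chosen with earlier results of these data known. Named are all genes of the chosen set, genes of the longer list that passed a test, and those said to be chosen after their values were seen. The alternatives were slide or array number as a block, the 75th percentile, quantile normalization, normexp (offset 50, on the median spot signal, since the files hold no mean), no filter, a filter on all 8 arrays, outlier spots kept, array weights, each slide alone, each array left out, and the mean over probes.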

Additional observations from a re-analysis of the deposited data

Results flagged for a closer look

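Within the groups of 4 arrays, 2 of 72 sets of values (36 genes in 2 groups) held an array far from the other 3, by Dixon's criterion on the gap to the nearest value over the group's range, and chance alone gives about 1 in 20. CCND2, a D-type cyclin, read 1.09 on DAPT array 3 with the others at 1.47 to 1.53, a gap of 0.869 of the range. MCM5, a subunit of the replicative helicase, read 0.944 on DAPT array 2 with the others at 1.40 to 1.46, a gap of 0.883 of the range.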

How the results depend on the processing

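Under every alternative listed, and after the data were seen also with CDC45, CDKN1A and MCM4 added through gene IDs, 0 of the chosen genes and 0 of the longer list read from their brightest probes were called, while the counts over all probes depended on the model. Without a block 33 probes were called higher and 12 lower. With the slide as a block there were 103 and 39, with the replicate block (array number) 125 and 70, with array weights 60 and 20, and without the filter 7 and 6. With normexp 3 were higher, and on slide 1 alone 20 were higher. On slide 2 alone 34 were lower, and those called higher included the other mRNA probe of GADD45G (1.79, limma adjusted p = 0.0281). The counts in the opposite direction are not given here for these settings. With 1 array left out, 5 to 20 were higher and 6 to 20 lower, the fewest (5 and 6) without DAPT array 4 and the most lower (20) without DMSO array 2. Under normexp the class medians were -0.441 for G1, -0.687 for S phase, -0.766 for mitosis and -0.411 for inhibitors, beside -0.311 for all tested probes, and 35 of the 36 genes were below 0. Array weights turned the direction of 18 genes and gave 23 above 0. CDK6 ranged from -0.66 to -0.12, the last under normexp, where the shift differed between probes. The first GADD45G probe passed without a block and with the slide or the array number as a block. It also passed with the filter on all 8 arrays, outlier spots kept or array weights. It did not pass with the 75th percentile, quantile normalization, normexp, no filter, either slide alone, or any array left out. The other mRNA probe passed with either block, the 75th percentile, array weights or slide 2 alone, and not in the remaining settings. The cause of these differences was not tested. With 4 arrays a group, small changes of these genes could not be told from none. Without a block, 0 of the 36 intervals excluded a 1.3-fold change and 18 excluded a 1.5-fold change. GADD45A, 1.38-fold higher, and CDK6, 1.46-fold lower, did not pass the adjusted test.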
